A study of Mus musculus with 24 samples.

Results

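The collagen genes of the mouse adrenal gland were taken as all genes whose symbol on the array reads Col, a number, the letter a and a number. There were 42 such genes with 82 probe sets, among 18194 genes with a symbol. Of these, 35 collagen genes with 52 probe sets passed the filter on dim signals, and they were tested among 13879 genes. Whole adrenals of adult male C57B/6J mice, 3 months old, were measured on Affymetrix arrays. The titles of all arrays read wt, for wild type, and there is no second genotype. The mice spent 2 weeks in 12 h of light and 12 h of darkness. They were then kept in constant darkness, without any other treatment. Collection began 38 h after the last lights off and went on at intervals of 4 h until 82 h, which gave 12 time points with 2 arrays at each. The hours minus 12, modulo 24, give the projected circadian time, where 0 is the hour at which light would have returned. The 6 groups are thus circadian time 2 (38 and 62 h), 6 (42 and 66 h), 10 (46 and 70 h), 14 (50 and 74 h), 18 (54 and 78 h) and 22 (58 and 82 h). Col5a3 was singled out because of its rhythm in these same arrays, so its values are a description and carry no test.

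Collagens are trimers of chains wound into a triple helix. Types I, II, III, V, XI and XXVII form fibrils, type IV forms the network of basement membranes, type VI forms beaded microfilaments, and the FACIT collagens sit on the surface of fibrils. Type V is a minor fibrillar collagen that is copolymerised with type I and needed to start its fibrils. Its chains are encoded by Col5a1, Col5a2 and Col5a3, and the chain of Col5a3 occurs in trimers together with the others. In the adrenal, collagen is found in the capsule, in the thin stroma and in the basement membranes of the sinusoids and cords.

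Col5a3 and Col5a1 were high at the same circadian times, and for that reason the DNA around their start sites is shown. The windows run from 250 bases before to 50 bases after the start, from RefSeq on build GRCm38.p6. For Col5a3 the window is chr9:20815018-20815317 on the minus strand, and for Col5a1 it is chr2:27886175-27886474 on the plus strand. Capitals mark the CCAAT box (letters CCAAT) and the GC box (letters GGGCGG), each searched on both strands, and matches of different motifs do not overlap here.
Col5a3: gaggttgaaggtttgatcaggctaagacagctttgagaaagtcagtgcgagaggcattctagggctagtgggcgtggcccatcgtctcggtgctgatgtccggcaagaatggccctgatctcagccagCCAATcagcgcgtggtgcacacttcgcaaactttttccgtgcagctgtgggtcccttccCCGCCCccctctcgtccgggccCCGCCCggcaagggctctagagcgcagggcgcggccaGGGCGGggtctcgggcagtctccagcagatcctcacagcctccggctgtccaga
Col5a1: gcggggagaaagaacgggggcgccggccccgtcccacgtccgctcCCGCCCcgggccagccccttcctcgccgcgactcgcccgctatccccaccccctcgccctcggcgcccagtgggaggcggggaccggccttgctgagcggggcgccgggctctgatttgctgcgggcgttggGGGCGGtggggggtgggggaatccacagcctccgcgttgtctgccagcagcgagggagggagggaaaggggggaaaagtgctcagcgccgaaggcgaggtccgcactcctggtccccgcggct
The Col5a3 window holds 1 CCAAT and 3 GGGCGG matches, at a GC content of 63.3%. The Col5a1 window holds 0 CCAAT and 2 GGGCGG matches, at a GC content of 75%. Neither window holds the letters CACGTG (an E-box), TTATGTAA (a D-box), AGGTCA (the core letters of ROR and REV-ERB receptor sites) or TATAAA on either strand. A window was found for 33 of the 42 collagen genes, and the RefSeq table holds 38 windows of genes with such a symbol. Of these 38, 0 hold CACGTG, 0 TTATGTAA, 8 AGGTCA, 13 CCAAT, 23 GGGCGG and 5 TATAAA. Among all 32851 windows of this length the shares are 7.15% for CACGTG, 0.938% for TTATGTAA, 16.3% for AGGTCA, 37.4% for CCAAT, 35.7% for GGGCGG and 13.6% for TATAAA. These matches describe the letters in the window alone.

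Some arrays are not independent of each other, and others stand apart. In 6 pairs of arrays no probe set above a signal of 50 differed by more than about 5%, which is less than the noise between other arrays. The SD of their log2 ratios was 0.0415 to 0.0418, against 0.217 to 0.516 in the 30 other pairs of one circadian time. Such a pair was counted as 1 sample. There were thus 18 profiles, with 3 for each circadian time. In 5 of the 6 pairs the labels lie 24 h apart, in different cycles, such as 50 h replicate 1 and 74 h replicate 2. The profiles of these 5 pairs belong to neither cycle and were left out where cycles are compared. Whether the arrays stand for separate animals is not in the labels, and the spread behind each p-value may therefore be technical only. The 8 arrays of circadian times 10 and 18, called the second array set, differed from the other 16, the first array set, in control probe sets. The bacterial control ThrX-3 read 513 to 1858 in the second set and 56.3 to 101 in the first. Gapdh signal at the 5′ end over that at the 3′ end, a sign of RNA integrity, was 0.0386 to 0.978 in the second set and 1.03 to 1.15 in the first, and the lowest value belongs to 78 h replicate 2. Set and circadian time cannot be told apart where levels are compared between sets. Rhythms were therefore fitted with the set as a block. For genes named below as rhythmic, values without the block and within the first set are given where the call differs. The defining markers of the labelled tissue were present. The 6 adrenal cortex genes (Cyp11a1, Cyp11b1, Cyp21a1, Star, Hsd3b1 and Nr5a1) summed to 53188 to 62716 in the second set and 62134 to 64599 in the first. All values here are probe set signals in arbitrary units, or log2 of the signal plus 51.

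Col5a3, read by probe set 1419703_at, had the widest swing of the collagen genes. At circadian time 2 its signal was 2417, 2355 and 2469, and at circadian time 6 it was 1698, 1526 and 1773. At circadian time 10 the signals were 419.7, 459 and 408, and at circadian time 14 they were 878, 733 and 569. The 3 profiles of circadian time 10 lie below every other profile, and no profile of circadian times 10, 14 or 18 reaches those of 2, 6 and 22. At circadian time 18 the signals were 526, 973 and 1215, the widest spread of any time on the log2 scale. At circadian time 22 they were 3067, 2502 and 2213. On the log2 scale Col5a3 averaged 11.27 ± 0.03 at circadian time 2, 8.91 ± 0.08 at 10, 9.83 ± 0.59 at 18 and 11.36 ± 0.23 at 22 (SD, n = 3 each). The neighbouring levels of circadian times 22 and 2 overlap, as do those of 14 and 18, and the other neighbours in the order of levels do not.

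A 24 h cosine with the array set as a block gave Col5a3 an amplitude, from the mean to the peak, of 0.99 ± 0.10 log2 units (SE, n = 18 profiles). This is a peak-to-trough ratio of 3.95, with the peak at circadian time 0.23 ± 0.35 h (SE). Without the block the amplitude was 1.21, and within the first set alone, 12 profiles, it was 0.96. Circadian time 18 was 0.92 log2 units above circadian time 10 within the second set, and 0.68 above it without 78 h replicate 2. The amplitude was 1.11 in the second cycle in darkness and 1.13 in the first. The other tested probe set of the gene, 1425984_at, lay between 112 and 246 on all 24 arrays and had an amplitude of 0.04. The swing is thus a reading of 1 of the 2 tested probe sets, and which transcripts each probe set reads was not tested.

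**Figure D1:**
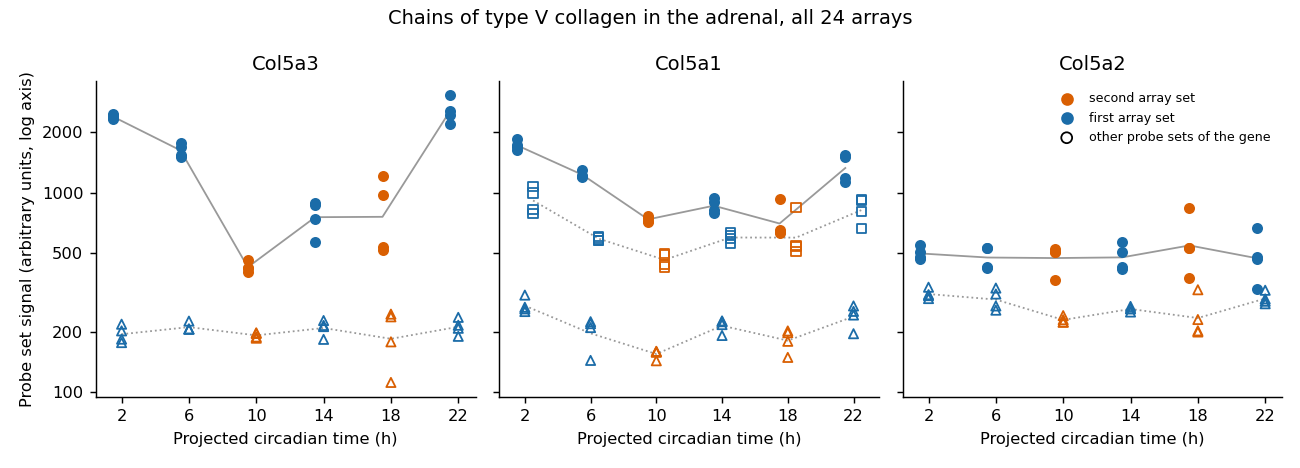
Signal of each tested probe set of Col5a3, Col5a1 and Col5a2 (arbitrary units, log axis) against projected circadian time in hours, for all 24 arrays. Filled points are the probe set used for the gene, open points its other probe sets, orange the second array set, blue the first, and grey lines join means. The used probe set of Col5a3 lies between 2213 and 3067 at circadian time 22 and between 408 and 459 at 10 (profile values), Col5a1 follows with a smaller swing, and Col5a2 shows none of this size.

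Col5a1, the chain found in nearly all type V trimers, also rose and fell over the day. Its signals were 1737, 1663 and 1858 at circadian time 2, 1300.2, 1207 and 1201 at circadian time 6, and 762, 712 and 732 at circadian time 10. They were 921, 787 and 819 at circadian time 14, 638, 632 and 934 at circadian time 18, and 1127, 1527 and 1183 at circadian time 22. The profiles of circadian time 2 lie above all others, and those of 10, 14 and 18 lie below all of 2, 6 and 22. The amplitude was 0.46 ± 0.07 log2 units (SE, n = 18), a peak-to-trough ratio of 1.89, and the fitted peak fell at 1.97 ± 0.47 h (limma, adjusted p = 0.00041). Within the first set it was 0.46 (limma, adjusted p = 0.0014). Within the second set, circadian time 18 minus 10 was -0.02 ± 0.15 for Col5a1 (limma, adjusted p = 0.952), beside 0.92 for Col5a3, and the difference between the genes was not tested. A second probe set of Col5a1, 1434479_at, had an amplitude of 0.34 and peaked at 23.1 h (limma over all probe sets, adjusted p = 0.0135), where 15.9% of 27021 probe sets passed. The third, 1416741_at, had an amplitude of 0.15 and missed the threshold in that fit (adjusted p = 0.219).

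Col5a2, the chain that joins Col5a1 in the common form of type V, did not pass the test. Its amplitude was 0.08 ± 0.09 log2 units (limma, adjusted p = 0.805), and its signals ran from 329 at 58 h replicate 1 to 840.0 at 78 h replicate 2. The extremes of Col5a2 thus come from 2 single profiles of different circadian times. Col5a2 and Col3a1 are neighbouring genes.

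Among the 34 tested collagen genes other than Col5a3, 5 passed the test for a 24 h rhythm with the block. This is 14.7% of them, while 17.8% of all 13879 genes passed, so in this fit the share is close to the background. Without the block 6 passed (17.6%, against 12.8% of all genes), and within the first set 8 did (23.5%, against 12.3% of all genes). In all 3 fits 5 passed (14.7%, against 6.9% of all genes). No test sets these shares against the background. The median amplitude of the 35 collagen genes was 0.08 log2 units, and that of all genes 0.09. The typical collagen gene thus swung about as much as the typical adrenal gene.

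**Figure D2:**
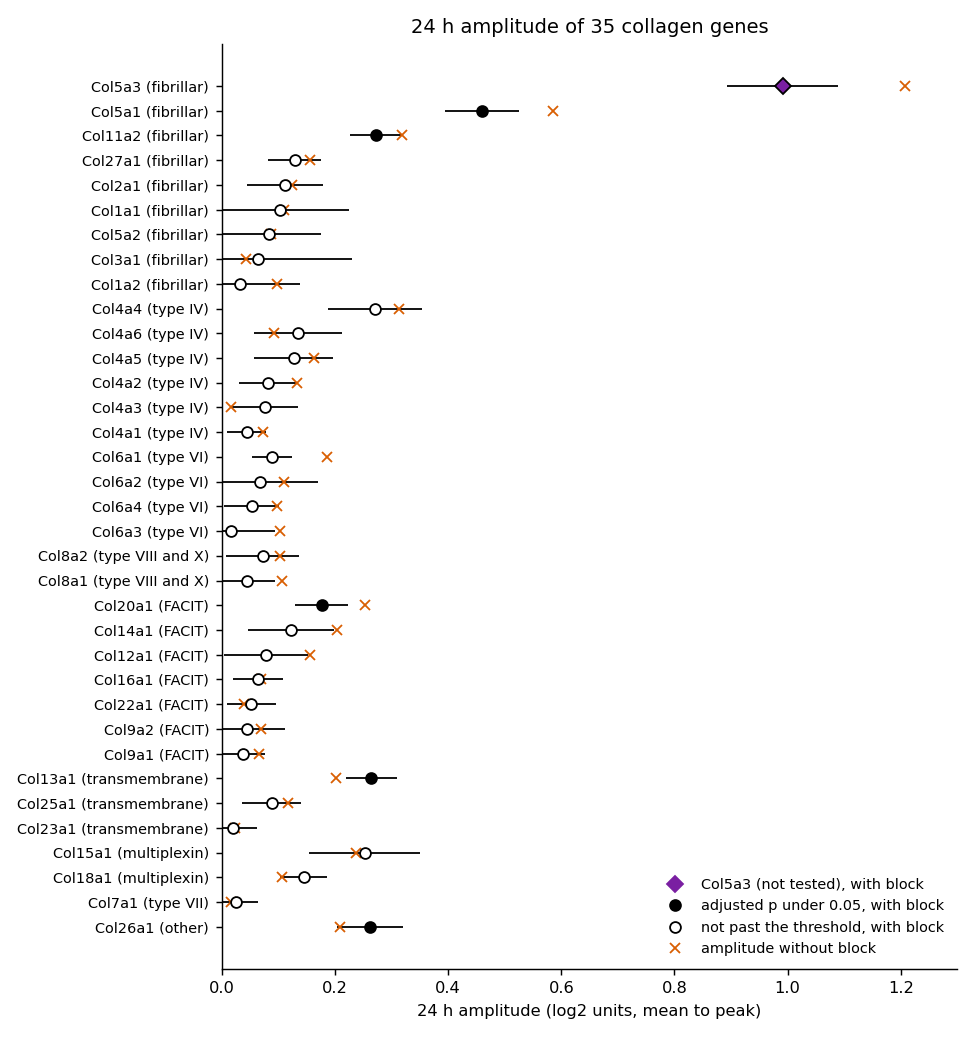
Amplitude of the 24 h cosine (log2 units, mean to peak) of 35 collagen genes, grouped by structural class; points with bars are the fit with the array set block (± SE, n = 18 profiles) and crosses the fit without it. Filled points passed an adjusted p of 0.05, and Col5a3 (diamond) carries no test. Col5a3 at 0.99 and Col5a1 at 0.46 lie furthest right.

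The other 4 rhythmic collagen genes had smaller amplitudes and different peaks. Col11a2, a chain of the fibrillar type XI collagen known from cartilage, had signals of 441, 373 and 429 at circadian time 2 and of 378, 349 and 378 at 6. They were 259, 244 and 264 at circadian time 10, 439.7, 414 and 394 at 14, 366, 344 and 371 at 18, and 658, 594 and 423 at 22. The profiles of circadian time 10 lie below all others, as they do for Col5a3. Col11a2 had an amplitude of 0.27 ± 0.05 log2 units and a fitted peak at 20.3 h (limma, adjusted p = 0.0019, n = 18). Circadian time 18 was 0.43 ± 0.10 higher than 10 within the second set (limma, adjusted p = 0.0479), and 0.41 higher without 78 h replicate 2 (adjusted p = 0.0675). Col11a2 was the 1 collagen gene higher at 18, where 3.57% of all genes were, and 0 were lower, where 2.43% of all genes were. At an unadjusted p under 0.05 (limma) 2 were lower, where 1426 of 13879 genes were. A probe set of Col4a4 not used for the gene, 1440250_at, differed by -0.95 (limma over all probe sets, adjusted p = 0.0096). It was dim at 18, with signals of 74.8 to 88.4. The calls of this contrast depend on single profiles. Without 78 h replicate 2, Col4a2 (-0.39, adjusted p = 0.0487) and Col4a4 (-0.71, adjusted p = 0.0149) were lower at 18 and passed, where 2.69% of all genes were lower and 3.37% higher, and Col11a2 did not pass. Without 46 h replicate 1, 46 h replicate 2 or the 70 h profile, 0 collagen genes passed.

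Col13a1, a transmembrane collagen known from the neuromuscular junction, peaked in the subjective night. Its signals were 332, 314 and 335 at circadian time 2, 267, 298 and 319 at 6, and 338, 342 and 314 at 10. They were 496, 475 and 411 at circadian time 14, 323, 409 and 362 at 18, and 388, 340.1 and 381 at 22. The profiles of circadian time 14 lie above all others. Col13a1 had an amplitude of 0.26 ± 0.04 log2 units, and the fitted peak fell at 15.7 h (limma, adjusted p = 0.0016, n = 18).

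Col26a1, a short collagen with an EMI domain, had signals of 419, 423 and 339 at circadian time 2, of 341, 406 and 415 at 6, and of 388, 400.3 and 433 at 10. They were 309, 257 and 262 at circadian time 14, 354, 326 and 255 at 18, and 367, 424 and 373 at 22. The profiles of circadian time 14 lie below those of the other times, except for 78 h replicate 2, at 255. The fitted curve had an amplitude of 0.26 ± 0.06 and was highest at 3.48 h (limma, adjusted p = 0.0123, n = 18). Without 50 h replicate 2 the call was lost (adjusted p = 0.0535), and the other probe set of the gene missed the threshold with 0.16 (over all probe sets, adjusted p = 0.237). Col20a1, a FACIT collagen, had signals of 473, 417 and 443 at circadian time 2, of 431, 491 and 393 at 6, and of 315, 284 and 288 at 10. They were 367, 345 and 304 at circadian time 14, 346, 292 and 287 at 18, and 348, 431 and 427 at 22. The profiles of circadian times 2 and 6 lie above those of 10, 14 and 18. Col20a1 had an amplitude of 0.18 ± 0.05 and was highest at 2.39 h (limma, adjusted p = 0.0359, n = 18). This call was lost in 5 of the 18 fits that leave out 1 profile, with an adjusted p of 0.054 to 0.181. Its other tested probe set had an amplitude of 0.14, highest at 12.7 h, and was not called (over all probe sets, adjusted p = 0.254). Of the 34 genes, Col5a1, Col20a1 and Col26a1 passed with a peak from circadian time 22 to 4, a window where 2.6% of all genes passed and that was chosen after the peaks were seen.

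Some collagen genes passed in part of the fits or with another probe set. Col6a1, a chain of the beaded type VI collagen, passed only without the block, with an amplitude of 0.19 (limma, adjusted p = 0.0497), and its amplitude with the block was 0.09 (adjusted p = 0.181). Its signals ran from 4172 to 5201 at circadian times 2 and 6, from 3390 to 3898 at 10 and 18, and from 4084 to 4586 at 14 and 22. Col12a1, Col15a1 and Col18a1 passed within the first set, with adjusted p of 0.0066, 0.0392 and 0.0117 (limma), and missed the threshold with the block. The other tested probe sets of Col12a1, 1427391_a_at and 1445751_at, had amplitudes of 0.006 and 0.04 within the first set. Neither was called (limma over all probe sets, adjusted p = 0.995 and 0.770). Col18a1, whose C-terminal fragment is endostatin, had an amplitude of 0.15 with the block (adjusted p = 0.0516). Its other probe set, 1426955_at, had an amplitude of 0.31 and was highest at 16.1 h (limma over all probe sets, adjusted p = 0.0012). Col4a4, a chain of kidney-type basement membranes, had an amplitude of 0.27 (adjusted p = 0.0665), and its other probe set had 0.39 with a peak at 7.52 (adjusted p = 0.0036). Without 78 h replicate 2, Col15a1 (adjusted p = 0.0302) and Col18a1 (adjusted p = 0.028) also passed with the block, which made 7 collagen genes other than Col5a3, or 20.6% of the 34, where 18.3% of all genes passed.

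The remaining classes gave few or no calls for the rhythm. Of all 13879 genes, 17.8% passed with the block, and 4428 had an unadjusted p under 0.05 (limma). The classes are too small for their counts to be told apart from these shares. Of the 6 type IV genes, 0 passed with the block (limma, 1 at an unadjusted p under 0.05). Col4a1, the main chain of basement membranes, ran from 3895 to 5456 over the 18 profiles, with an amplitude of 0.04 ± 0.03 log2 units (limma, adjusted p = 0.651). Col4a2, its partner, shares a promoter region with it head to head and had an amplitude of 0.08 ± 0.05 (adjusted p = 0.49). The 4 tested type VI genes and the 2 tested type VIII genes (Col8a1 and Col8a2) gave 0 calls, and 0 of them had an unadjusted p under 0.05. Col8a1, a network collagen of vessels, ran from 333 to 508. Of the 7 FACIT genes 1, Col20a1, passed, and Col9a2 of type IX collagen ran from 900.2 to 1624 without a call (adjusted p = 0.887). Of the 3 transmembrane genes, Col13a1 passed, and Col25a1, the neuronal transmembrane collagen, ran from 363 to 592 (adjusted p = 0.454). Col7a1, the anchoring fibril collagen of the dermal junction, had the smallest residual SD next to Col6a1, with signals from 621 to 799 and an amplitude of 0.03 (adjusted p = 0.886).

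Some collagen genes of the stroma varied strongly between profiles of the same circadian time. Col3a1, the fibrillar type III collagen of stroma, had signals of 2379, 2244 and 2496 at circadian time 10, of 3043, 1379 and 4433 at circadian time 18, and of 1276, 2156 and 3870.2 at circadian time 22. The levels of all circadian times overlap. Its residual SD around the fit was 0.49 log2 units. That of Col1a1, a chain of type I collagen, was 0.39, that of Col6a2 0.34, and those of Col1a2 and Col5a2 0.31 each. The median residual SD was 0.16 for the 35 collagen genes and 0.13 for all genes. At 58 h replicate 1 the signals were 542 for Col1a1, 2177 for Col1a2 and 756 for Col6a2, each at or near the low end of the 18 profiles. At 78 h replicate 2 they were 1571 for Col1a1, 3701 for Col1a2 and 2214 for Col6a2, and at 82 h replicate 1 they were 1179, 4621 and 1741.

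Some of the fibroblast and capsule markers moved with these collagens in part of the profiles. Dcn (decorin) read 3799 at 58 h replicate 1, 8020.4 at 78 h replicate 2 and 6621 at 82 h replicate 1. Lum (lumican) read 804 at 58 h replicate 1, 1778 at 78 h replicate 2 and 1449 at 82 h replicate 1. Both are lowest at 58 h replicate 1, as are Col3a1 and Col5a2. Postn is lowest there too, at 1206, and highest at 82 h replicate 1, at 2377. Other markers differ from this: Pdgfra is lowest in a profile of circadian time 6, at 898, and Gas1 in one of circadian time 14, at 1733. Dpt is lowest in another profile of circadian time 6, at 582. At 54 h replicate 2, Col1a1 and Col1a2 are lowest (531 and 1978). There Postn read 1429, its lowest value but for 58 h replicate 1. Dcn read 6271, Lum 1365, Pdgfra 1245, Dpt 1100 and Gas1 1968 in that profile, inside their ranges. The whole marker list (Dcn, Lum, Pdgfra, Dpt, Gas1 and Postn, 6 of 6 tested) summed to 15643 to 16285 at circadian time 10, to 13377 to 17245 at 18 and to 9254 to 15293 at 22. Col3a1 had its widest spread at 18 and 22. None of the 6 markers was at 0, and 0 of them passed the test for a rhythm (limma, 1 at an unadjusted p under 0.05). Of all 13879 genes 17.8% passed and 4428 had such an unadjusted p, so a list of 6 cannot show that these markers are flat. In whole glands, fewer cells of a type and less RNA per cell cannot be told apart, and the part of these markers in the spread of the collagens was not tested.

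**Figure D3:**
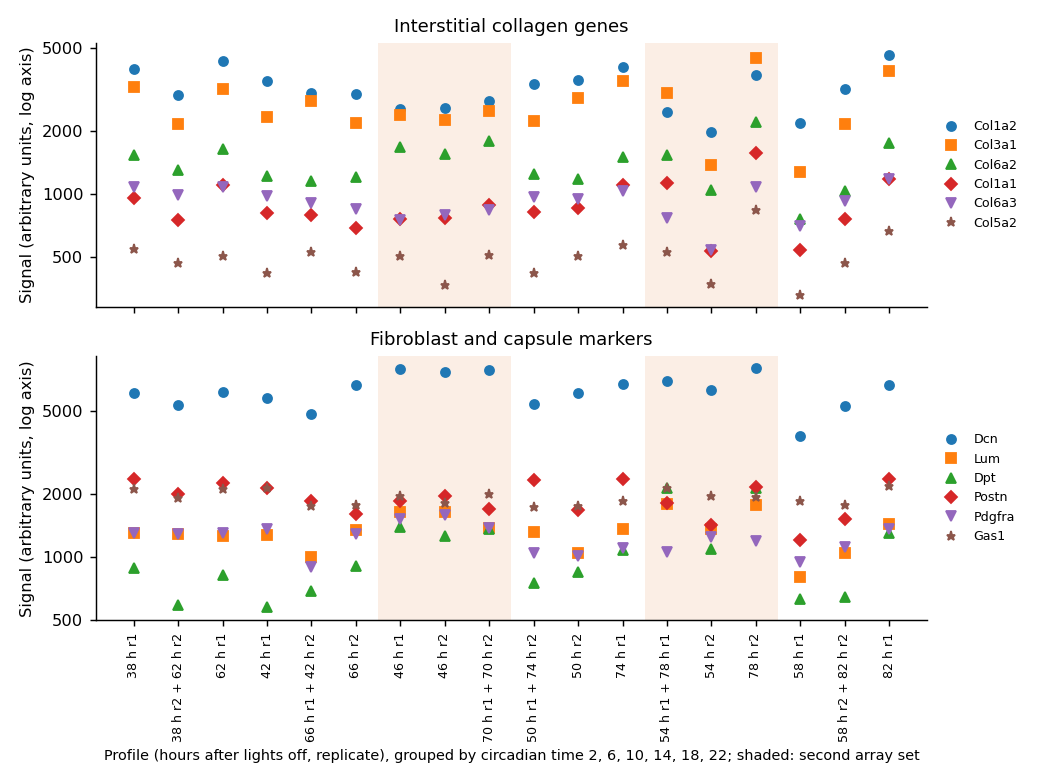
Signal (arbitrary units, log axis) of 6 interstitial collagen genes (top) and 6 fibroblast and capsule markers (bottom) in each of the 18 profiles, placed side by side by circadian time; r stands for replicate, + joins near-identical arrays, and shading marks the second array set. At 58 h replicate 1 Col3a1 reads 1276 and Dcn 3799, and at 82 h replicate 1, of the same circadian time, 3870.2 and 6621.

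Between the array sets, 5 of the 34 collagen genes other than Col5a3 were higher in the second set and 13 were lower (limma, adjusted p under 0.05). Among all genes 17.8% were higher and 29.6% lower. The difference includes any rhythm, since the second set holds circadian times 10 and 18 alone. The median difference was -0.14 log2 units for the 35 collagen genes and -0.05 for all genes. Col5a3 differed by -1.37 and Col5a1 by -0.72 ± 0.16 (adjusted p = 0.00088). Col6a1 (-0.36), Col6a4 (-0.37), Col27a1 (-0.39), Col12a1 (-0.42) and Col11a2 (-0.45) were also lower in the second set, as were Col4a1 (-0.18) and Col4a2 (-0.26), all with an adjusted p of at most 0.0105. Col1a2 (-0.37, adjusted p = 0.0273) and Col6a3 (-0.29, adjusted p = 0.0333) were lower too. Col15a1, a collagen of vessel and muscle basement membranes, was higher by 0.59 ± 0.16 (adjusted p = 0.0043), and Col2a1, the main cartilage collagen, by 0.60. Col2a1 averaged 8.24 log2 units in the second set and 7.64 in the first, which is under the filter limit of 7.88. It passed the filter only through the set where it is high, so its difference is a description. The same holds for Col8a2 (8.09 against 7.81), and both are among the 5 higher genes.

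Skeletal muscle markers were present in part of the second set: the 3 tested genes of that list (of Acta1, Ckm, Mylpf, Tnnt3, Myh4 and Pvalb) summed to 410 to 15845 in the second set and to 451 to 546 in the first. The 4 profiles with an Acta1 signal over 1000 all belong to the second set, which holds 6 profiles. A fit without them thus rests on few profiles of that set. There 1 collagen gene was higher in the second set, Col2a1 with 0.55, which had passed the filter only through that set. Col15a1 had 0.26 (adjusted p = 0.423) and Col8a2 0.31 (adjusted p = 0.136). In that fit 11.9% of all genes were higher. On the lower side 10 collagen genes passed, where 22% of all genes did, and Col4a1 (adjusted p = 0.0692), Col12a1 (0.0652) and Col22a1 (0.167) missed the threshold. Their differences were -0.15, -0.45 and -0.14, against -0.18, -0.42 and -0.19 with all profiles. The loss of samples and the loss of muscle signal cannot be told apart here. Endothelial markers, 6 of 6 tested, summed to 8814 to 10268 in the second set and to 11138 to 13579 in the first. Over all profiles 3 of them were lower, where 29.6% of all genes were. Liver markers, 3 of 6 tested, summed to 1657 to 12860 in the second set and to 975 to 2398 in the first. Blood markers, 5 of 6 tested, summed to 5844 to 6895 in the second set and to 3607 to 6008 in the first. Fibroblast markers summed to 13377 to 17245 in the second set and 9254 to 15293 in the first, and 3 of 6 were higher, where 17.8% of all genes were. Medulla markers summed to 32057 to 39565 in the second set and to 32799 to 41578 in the first. Smooth muscle markers summed to 7110 to 8158 in the second set and to 6930 to 9540 in the first. Schwann cell markers summed to 2387 to 2791 in the second set and to 1993 to 2526 in the first, and fat markers to 12007 to 21070 in the second set and to 10277 to 20373 in the first. Of the other lists, skeletal muscle had 3 genes higher in the second set, liver, blood and Schwann cell 2 each, and the cortex had 2 lower. Medulla and smooth muscle had 1 higher and 1 lower each, and fat had 0 of either. The part of these tissues in the collagen signals was not tested, since the fits without the Acta1 profiles also remove samples.

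**Figure D4:**
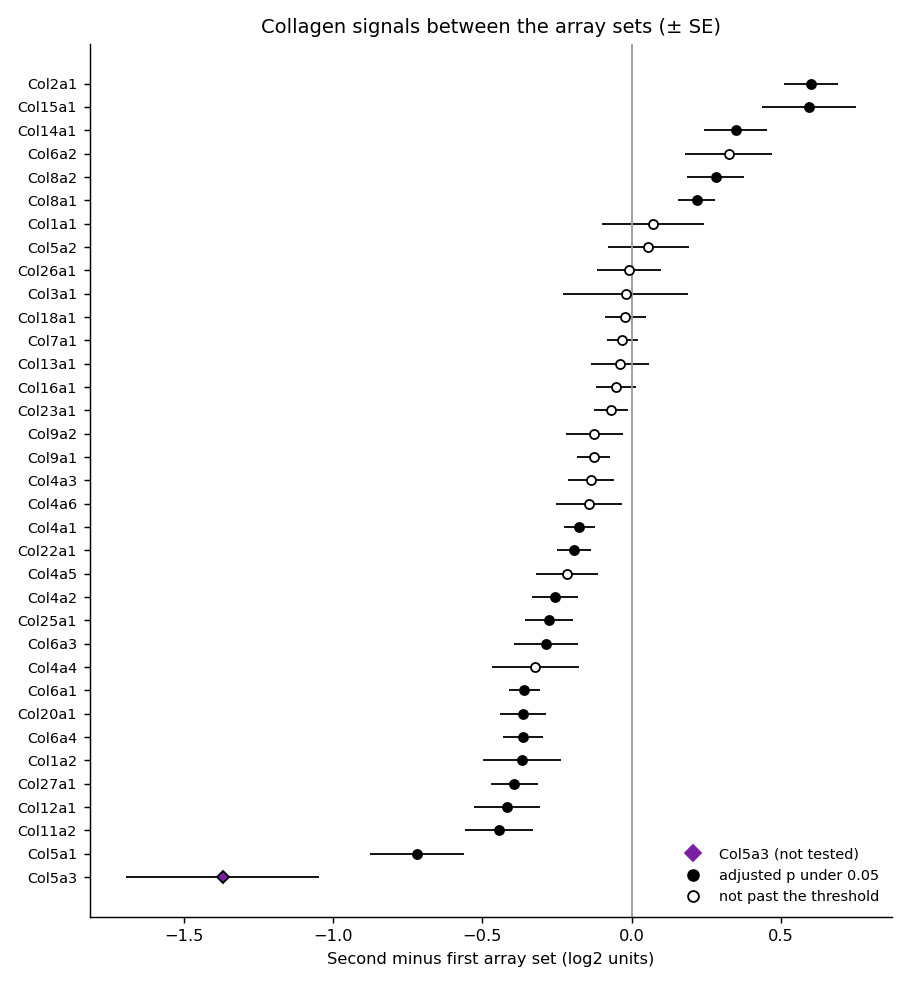
Mean difference, second minus first array set (log2 units, ± SE, 6 against 12 profiles), of 35 collagen genes in order of the difference. Filled points passed an adjusted p of 0.05, and Col5a3 (diamond, -1.37) carries no test. Col2a1 at 0.60 is at the other end, and it passed the filter only through the second set.

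No collagen gene passed the test for a level change between the second and the first cycle in darkness, over the 13 profiles that belong to 1 cycle (limma, adjusted p under 0.05), and 0 of 13879 genes did. At an unadjusted p under 0.05 there were 6 collagen genes, Col1a1, Col1a2, Col3a1, Col5a2, Col6a2 and Col15a1, where 9.72% of all genes had such a p. All 6 were higher in the second cycle, by 0.35 to 0.55 log2 units (adjusted p = 0.492 to 0.493). Of the 6 profiles of the second cycle, 82 h replicate 1 and 78 h replicate 2 are those with high interstitial signals above, and 58 h replicate 1, of the first cycle, is low. The test of a difference in rhythm between the cycles gave 0 calls among all genes (limma), with 9 collagen genes and 5.84% of all genes at an unadjusted p under 0.05.

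The genes whose pattern was most like that of Col5a3 were not collagens. After the mean of each array set was subtracted, the highest Pearson correlations over the 18 profiles were 0.947 for Sh3gl2 (endophilin A1), 0.936 for Anp32a, 0.916 for Ermp1, 0.913 for Slc30a2 (a zinc transporter) and 0.909 for Mc2r, the receptor for the pituitary hormone ACTH. Their fitted peaks lay between circadian time 23.9 and 0.37, next to the 0.23 of Col5a3. Their amplitudes were 0.46, 0.33, 0.22, 0.58 and 0.22 log2 units in this order, all below the 0.99 of Col5a3. Among the collagen genes Col5a1 was most like it, with 0.734 and rank 172 of all genes (Col5a3 itself holding rank 1), then Col11a2 with 0.508 and Col20a1 with 0.462. Col5a2 stood at 0.03. These correlations describe the profiles, which share arrays and the array sets, and have no test.

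The enzymes and chaperones that modify new collagen chains were listed to set beside the collagen genes, 36 symbols of which 27 are on the array and 25 were tested. With the block 7 passed for a rhythm, which is 28% against the background of 17.8%. Of these 7, 6 peaked between circadian time 15 and 19, where 3.65% of all genes passed. That window was chosen after the peaks were seen. P4ha1, a catalytic subunit of prolyl 4-hydroxylase, had signals of 1737, 1842 and 1846 at circadian time 14 and of 879, 905 and 964 at 6. Its amplitude was 0.40 ± 0.08 log2 units and it peaked at 16.8 h (limma, adjusted p = 0.0061, n = 18), while the call was absent without the block (adjusted p = 0.331). P4ha2, the alternative subunit, had 0.27 with a peak at 16.4 (adjusted p = 0.0089), and missed the threshold within the first set (0.0561).

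Of the 3 lysyl hydroxylases, Plod1 and Plod3 passed. Plod1 had an amplitude of 0.31 with a peak at 16.5 (adjusted p = 0.0037) and Plod3 one of 0.17 with a peak at 17.4 (adjusted p = 0.0312). Plod3 was not called without the block (adjusted p = 0.140) nor within the first set (0.0975). Plod2 did not pass, with an amplitude of 0.09 (adjusted p = 0.456). P3h2, a prolyl 3-hydroxylase, had 0.22 and a peak at 17.6 (adjusted p = 0.0029). Serpinh1, the collagen chaperone HSP47, had 0.29 and a peak at 18.3 (adjusted p = 0.0236), which was not called without the block (0.265) nor within the first set (0.225). Sparc, a collagen-binding matrix protein, had 0.10 and a peak at 23.4 (adjusted p = 0.0101). With the block, the fitted peaks other than that of Sparc lay in the subjective night, ahead of that of Col5a3. Sparc peaked at 23.4 ± 0.80 h (SE) with the block, at 0.47 without it and at 0.49 within the first set. Its order against Col5a3 is therefore not settled. Without the block the fitted peaks of Serpinh1 and P4ha1 moved to 22.7 and 19.8 h. Without the block 5 of the 25 passed (20%, against 12.8% of all genes), and within the first set 5 (20%, against 12.3%). In all 3 fits 3 did (12%, against 6.9%), and no test sets these shares against the background. The median amplitude of the list was 0.08, against 0.09 for all genes.

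A further list held receptors, proteases and their inhibitors, and fibril partners, 29 symbols of which 28 are on the array and 26 were tested. With the block 5 passed (19.2% against 17.8% of all genes), without it 4 (15.4% against 12.8%), and within the first set 3 (11.5% against 12.3%). These shares are close to the background. Timp3, an inhibitor of metalloproteinases held in the matrix, had 5719.9 to 6081 at circadian time 14 and 4191 to 4686 at 2, with an amplitude of 0.20 ± 0.03 and a fitted peak at 13.99 h (limma, adjusted p = 0.0012, n = 18). Lair1, an inhibitory collagen receptor of immune cells, had 0.19 and a peak at 19.5 (adjusted p = 0.0097), but was not called without the block (0.0651) nor within the first set (0.132). Mmp14, a membrane-bound collagenase, peaked in the opposite part of the day, at 4.35 with 0.28 (adjusted p = 0.0235, and 0.0557 within the first set). Timp2 peaked at 8.84 with 0.25 (adjusted p = 0.025, and 0.0953 within the first set), and Tnxb (tenascin X) at 14.3 with 0.28 (adjusted p = 0.0368). Within the second set 3 of the 26 genes were lower at circadian time 18 than at 10, and 0 were higher. Among all genes 2.43% were lower and 3.57% higher. Mmp14 differed by -0.59 log2 units (limma, adjusted p = 0.0214). Itgb1, the common subunit of the collagen integrins, differed by -0.74 (adjusted p = 0.0341). Mrc2, an endocytic collagen receptor, differed by -0.96 (adjusted p = 0.0142). The Mrc2 signals at circadian time 18 were dim, at 59.4, 96.9 and 104, below the filter signal of 184. Whether these 3 calls hold without 78 h replicate 2, the array with the lowest Gapdh ratio, was not tested.

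**Figure D5:**
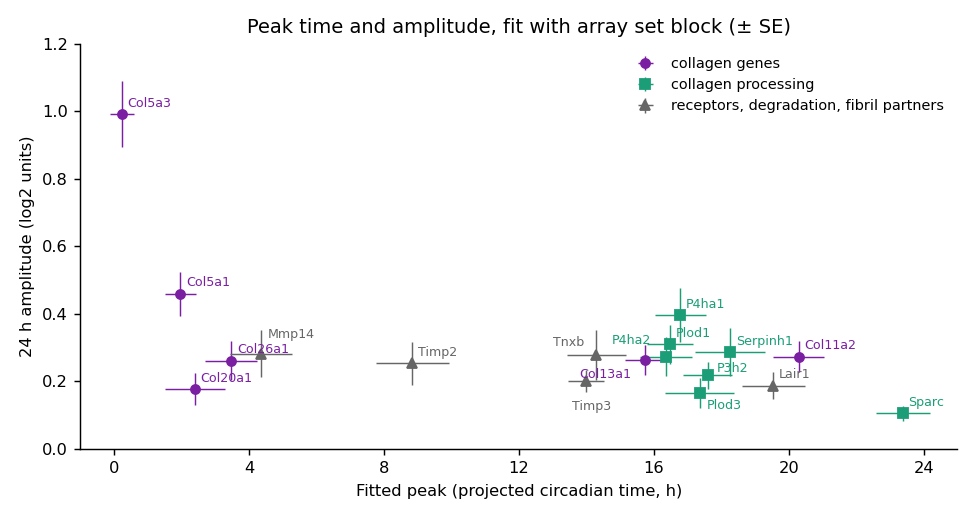
Fitted peak (projected circadian time in hours) and amplitude (log2 units), each ± SE, with the array set block, for the genes of the 3 lists with an adjusted p under 0.05, and for Col5a3. Col5a3 and Col5a1 lie at 0.23 and 1.97 h, and 6 of the 7 processing genes lie between 16.4 and 18.3 h.

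The 7 collagen genes that were not tested are Col6a5, Col9a3, Col10a1, Col11a1, Col17a1, Col19a1 and Col24a1. Just outside the filter lay Col10a1, the collagen of hypertrophic cartilage, with a mean of 7.86 log2 units, and just inside it Col2a1 with 7.88, where the limit was 7.88 after rounding. Some probe sets were listed at 0 on part of the arrays. A probe set of Col6a4, 1445470_at, read 235 to 589 on the 16 arrays of the first set and was listed at 0 on all 8 arrays of the second. One of Col19a1, 1456953_at, was also listed at 0 on the same 8 arrays and read 0.0213 to 46.6 on the others, and 1440911_at of Col23a1 was listed at 0 on 21 of 24 arrays. The origin of these zeros was not tested.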

How the data were processed

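The values are the authors' deposited probe set intensities on a linear scale (unit intensity), 24 arrays with 45101 probe sets. Their summary and scaling are not given in the sources used here. Per the labels' protocols, the material was total RNA from a column kit, with a biotin label. Genes were named from the platform annotation (34958 probe sets with 1 symbol, 932 with several, 9211 not listed).

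An offset of 51, the 10th percentile of the values, was added before log2, so that changes of dim genes are understated. Probe sets had to reach the 40th percentile of means, a signal of 184, and a gene was read by its brightest one. Array medians lay between 8.14 and 8.32, and no further normalization was applied. The rhythm test was limma's (version 3.58.1, R 4.3.3), a moderated F test, with trend, of the cosine and sine of 24 h, with Benjamini-Hochberg adjustment over 13879 genes and a threshold of 0.05. The array set was a block. The sets were split at a ThrX-3 signal of 300 and the near-copies found at a tolerance of 5%. Arrays have no read depth; their number limits the precision.

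On simulated data, the blocked fit over 13879 genes recovered 46 of 67 rhythms with an amplitude of 0.25, 66 of 67 with 0.5 and 66 of 66 with 1, with 7 false calls. The members, lists and tests were chosen with earlier results of these data known. Genes named with full values were Col5a3, every collagen gene past the threshold with or without the block, the member with the highest mean signal of each class, those with the largest rise and fall between sets, and up to 8 rhythmic genes of each further list. Other collagen genes were named after their values were seen.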

Additional observations from a re-analysis of the deposited data

How the results depend on the processing

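The collagen count of 5 (Col5a3 left out) became 8 within the first set, 9 over all 24 columns, 9 over them with the replicate number as a block, and 8 over them with a random block for the time point, an alternative chosen after seeing the data. It was 1 without replicate 1 and 1 without replicate 2, where 231 and 657 of all genes passed. Over all genes the main count of 2475 became 4615 over 24 columns, 4664 with the replicate block and 3929 with the random block. Counts over 24 columns take near-copies as separate samples. A random block could not be fitted over the 18 profiles, since 46 h alone holds more than 1 profile. Leaving out 1 profile in turn gave 3 to 7 collagen genes (3 without 50 h replicate 2) and 1797 to 2593 of all genes.

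Col5a3 had an amplitude of 0.48 with the mean of its probe sets, and of 0.91 to 1.05 without 1 profile. Of the processing genes 0 passed without replicate 1 and 1 without replicate 2, and 5 to 9 without 1 profile, against 7. For circadian time 18 against 10, 0 collagen genes passed with no filter, 3 with the mean of probe sets and 0 to 2 without 1 profile. Between sets the number higher was 1 without the Acta1 profiles and 4 to 6 without 1 profile, and the number lower, 14 with Col5a3, was 10 without the Acta1 profiles and 12 to 16 without 1 profile. No collagen gene passed for the cycles under any of the alternatives run, with 0 throughout. Without 78 h replicate 2, circadian time 18 minus 10 changed sign in 9 of 35 collagen genes, none of them called, among them Col1a1 (-0.05, against 0.28), Col3a1 (-0.20, against 0.16) and Col5a2 (-0.04, against 0.25). The median collagen amplitude, 0.08 in the main fit, was 0.11 without the block, 0.07 with an offset 4 times larger and 0.08 to 0.11 without 1 profile. Leaving out a replicate number or the Acta1 profiles removes samples, and the causes of the other shifts were not tested. Quantile normalization moved array medians by -0.05 to 0.13. The 60th percentile filter left 24 collagen genes. Same replicate numbers did not pair samples: the correlation of same-number deviations ran from -0.56 to 0.53 over 66 pairs of time points, with a median of 0.01.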
